A study of Homo sapiens with 2 samples.

Results

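The peaks described here are those that the authors' SOX4 peak list places on the short arm of chromosome 7 (7p). A peak was a member when its chromosome was 7 and its midpoint lay below 56 Mb in hg19, whatever its score. This gave 373 of the 4201 peaks of the list. SOX4 binding was mapped by chromatin immunoprecipitation with sequencing (ChIP-seq), which recovers the DNA that a protein sits on. The cells were LN229, an established human glioblastoma line per the title and sample labels, while the design text calls them prostate cells. One group was transfected with a Flag-SOX4-HA plasmid and the control group with a GFP-Flag-HA plasmid, and anti-Flag antibody was used on both. Each group had 1 library without a replicate, only the peak list of the SOX4 library was analysed here, and no background from the GFP cells could be set beside any value. All intervals below are 95% intervals that cover counting error in that library, treat peaks as independent and say nothing about SOX4 against GFP.

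SOX4 is a transcription factor of the SOX family, which bends DNA through its HMG box and is active in development and in many tumours. The short arm of chromosome 7 carries EGFR, the gene of the epidermal growth factor receptor, a tyrosine kinase that drives growth and survival signals. Gain of chromosome 7 and further amplification of EGFR are among the most frequent lesions of glioblastoma, and in such tumours the arm is present in more copies than most of the genome. No copy number of LN229 was measured in the data used here, and its part in any value below was not tested. No gene annotation or sequence of hg19 was used, so the peaks are given by position, and no sequence is shown.

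Peaks on 7p were numerous, weak and narrow, and were spread along nearly the whole arm. They made up 8.88% of the list (8.04 to 9.78%) and 47.6% of the 784 peaks of chromosome 7 (44.03 to 51.1%), but only 3.89% of the bases that all peaks covered. Their density was 6.66 peaks per Mb (6.002 to 7.37). On the long arm above 63 Mb, beyond the dense peaks beside the centromere, 194 peaks gave 2.02 per Mb (1.75 to 2.33). Chromosome 20 had 276 peaks or 4.44 per Mb (3.93 to 4.99), and chromosomes other than 7, 20 and Y together had 1.07 per Mb (1.04 to 1.11), measured up to the last peak of each chromosome. The 217 peaks of chromosome 7 from 56 to 63 Mb were in neither arm's set. Nothing was left out beside the centromere of chromosome 20 or the other chromosomes, so every comparison with them is between unlike sets. The 7p density was thus 3.29-fold that of the long arm (2.76 to 3.94), 1.501-fold that of chromosome 20 (1.28 to 1.76) and 6.201-fold that of the other chromosomes (5.55 to 6.91). Neighbouring peaks are not independent, so peaks at most 100 kb apart were also chained and each chain counted once. The 142 chains of 7p then gave 1.96-fold (1.53 to 2.52), 1.53-fold (1.18 to 1.99) and 9.097-fold (7.55 to 10.9) in the same order.

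With every peak counted, the excess over the other chromosomes lay in scores under 100. The score is the authors' own value, and the lowest in the whole list was 50.01. Of the 373 members, 227 scored under 60 (60.9%, 55.7 to 65.8%), 130 scored from 60 to below 100, 16 scored 100 or more (4.29%, 2.47 to 6.87%) and none reached 1000, which by the limit of 3 counts for a count of 0 allows a share of up to 0.804%. The share at 100 or more was 9.28% on the long arm (5.59 to 14.3%), 22.5% on chromosome 20 (17.7 to 27.9%) and 45.05% on the other chromosomes (43.2 to 46.9%). The long arm's interval overlaps that of 7p, and the others do not. Chromosome 20 and the other chromosomes were not cut beside the centromere as chromosome 7 was. Between 56 and 58 Mb, outside the sets of both arms, 22 of 50 peaks scored 100 or more. Counted per Mb, members scoring under 60 were 13.9-fold as dense as on the other chromosomes (11.9 to 16.1), and those from 60 to 100 were 7.798-fold as dense (6.43 to 9.39). Members scoring 100 or more were 0.59-fold as dense (0.337 to 0.962), but 3.47-fold (1.86 to 5.95) when chains formed anew among these stronger peaks were counted once, so the direction at high scores depends on how neighbours are counted. Against chromosome 20, the same high-score fold was 0.287 (0.154 to 0.503), or 0.819 (0.38 to 1.72) with chains counted once. Against the long arm, the folds were 3.14 (2.51 to 3.94) under 60, 4.28 (3.08 to 6.03) from 60 to 100 and 1.52 (0.727 to 3.16) at 100 or more. Their intervals overlap, so between the arms the excess was not shown to be greatest at the lowest scores.

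The median score on 7p was 57.4 (56.06 to 58.7), with quartiles of 52.7 and 66.04. It was 56.3 on the long arm (54.7 to 58.02), 61.4 on chromosome 20 (58.9 to 65.4) and 89.6 on the other chromosomes (85.95 to 93.8). The 7p and long-arm intervals overlap, so a difference between the arms in the typical score was not shown.

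**Figure D1:**
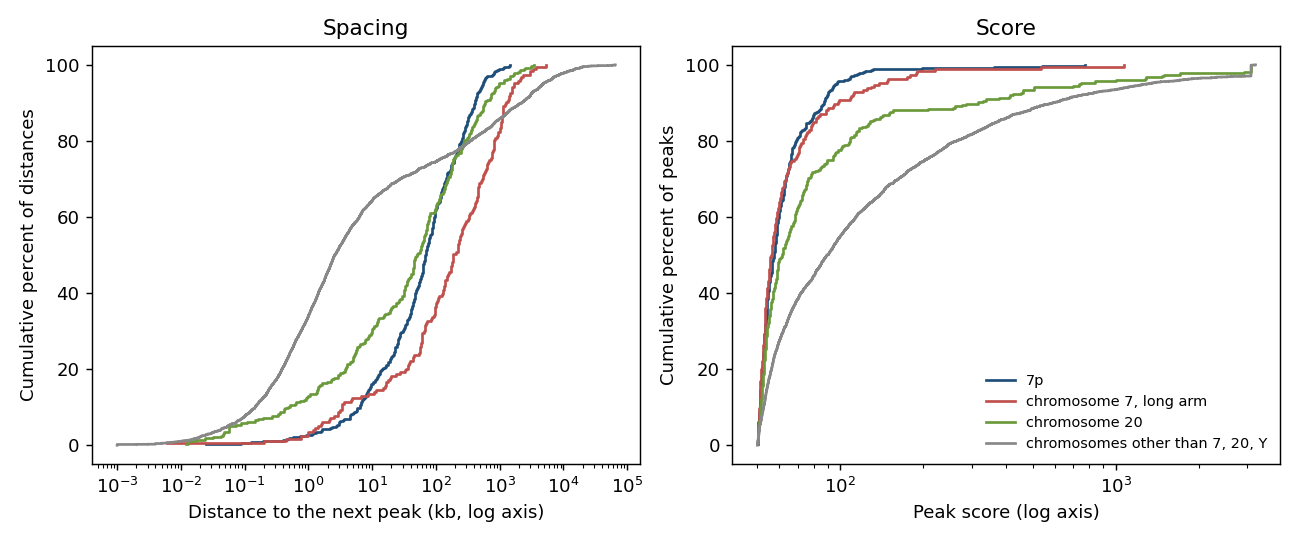
Cumulative percent of distances between consecutive peaks (left, kb, log axis) and of peak scores (right, log axis) for 7p, the long arm above 63 Mb, chromosome 20, and the chromosomes other than 7, 20 and Y. The scores of both arms of chromosome 7 rise steeply just above 50, with 60.9% of the 7p peaks under 60, while the 7p spacing centres on a median of 68.6 kb.

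Width and score together gave the number of reads that a score stands for. Plotted against width, the scores of weak peaks fell on separate curves rather than filling the plane. These curves were matched by a Poisson tail: the score was −10 times the base-10 logarithm of the probability of more than n reads, with n a whole number and a mean equal to the peak's width times 1 rate. The rate, fitted on 791 weak peaks outside chromosome 7, was 5.73 reads per kb. Applied to 7p, it gave the deposited score to within 0.02 for 371 of 373 members (99.5%, 98.1 to 99.9%), with a largest difference of 0.0282. A step of 1 in n moves the score of a member by a median of 6.66, so a match within 0.02 is narrow. Fitted on 175 weak 7p peaks alone, the rate was again 5.73 reads per kb. Being recovered from the scores, it is a constant of the scoring and not a read density measured on 7p. Of the peaks scoring under 100, all 357 on 7p, all 176 on the long arm, all 214 on chromosome 20 and 1619 of 1620 on the other chromosomes matched with the same rate. Apart from that 1 peak, a score under 100 in this list was therefore reproduced from width and n alone. No term for the chromosome, the neighbourhood or the control library was needed. With stronger peaks included, up to a score of 3000, 3725 of 4097 peaks of the list matched within 0.02 (90.9%), with a largest difference of 4.24, and the statement does not extend to them.

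The implied read numbers were small. Over the 371 matched members the median n was 15, with quartiles of 14 and 18, the same values as on the long arm. Among matched peaks the median n was 16 on chromosome 20 and 20 on the other chromosomes. If the caller defined the tail as at least n rather than more than n, each number is 1 higher. In all, 189 of the 373 members had 15 or fewer (50.7%, 45.5 to 55.9%) and 60 had 20 or more (16.1%, 12.5 to 20.2%). A count of 15 has an exact Poisson interval of 8.4 to 24.7. The rate gives 3.901 reads in a peak of the median 7p width, but background reads on 7p itself were not measured. The members' n was a median of 4.03-fold the number that this 1 rate gives at their width (3.996 to 4.06). The median fold was 4.05 on the long arm (4.002 to 4.11), 4.17 on chromosome 20 (4.07 to 4.23) and 4.34 on the other chromosomes (4.31 to 4.37). The long arm's interval overlaps that of 7p. All these folds are bounded from below by the score threshold that defines a peak.

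Many members thus stood within a read or a few of the threshold. With 1 read fewer at the same width, 172 of the 373 would score under 50 (46.1%, 40.97 to 51.3%), and with 3 fewer 297 would (79.6%, 75.2 to 83.6%). Peaks that did not match were left out of the comparison sets but not of 7p. The share lost with 1 read fewer was 51.6% of 192 matched peaks on the long arm (44.3 to 58.8%). On chromosome 20 it was 40.9% of 257 matched peaks (34.8 to 47.1%). Among the 2567 matched peaks of the other chromosomes it was 23.3% (21.7 to 25.02%), below the 7p interval. Repeat libraries would be needed to say how many of these members recur.

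**Figure D2:**
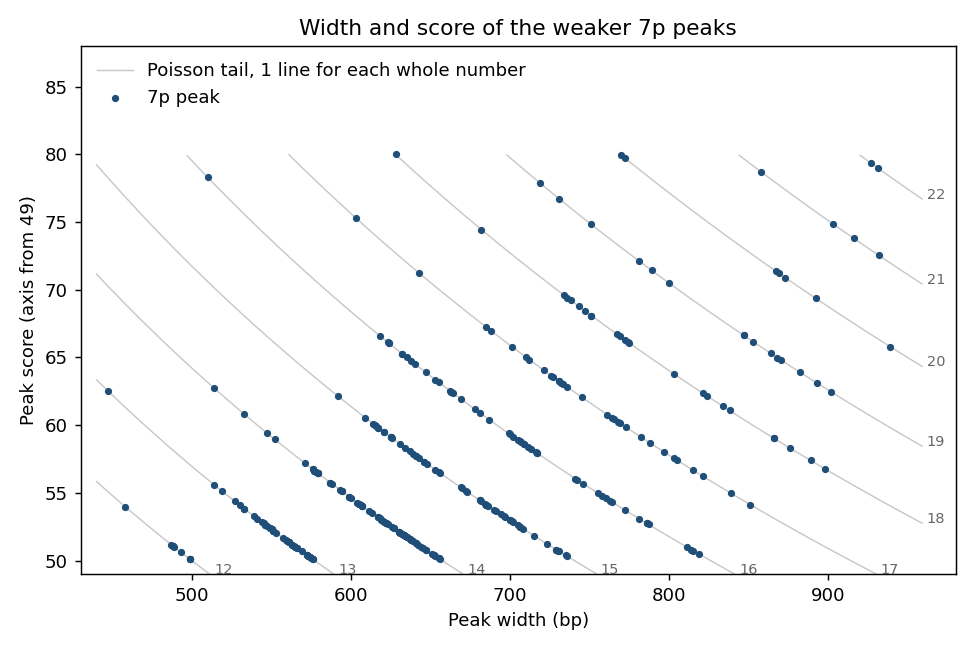
Width (bp) and score of the 7p peaks narrower than 960 bp and scoring at most 80. Each grey line is the Poisson tail for 1 whole number of reads n, labelled from 12 to 22, at the rate of 5.73 reads per kb fitted outside chromosome 7, and each point is a peak. The points lie on the lines.

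Members were narrow as well as weak. Their median width was 681 bp (653 to 700), from 447 to 1526 bp, and 25 exceeded 1000 bp (6.702%, 4.38 to 9.74%). On the long arm the median was 646.5 bp (627 to 666), so narrow peaks were shared by both arms. None of the members exceeded 2000 bp, against 1.03% on the long arm (0.125 to 3.67%) and 19.6% on the other chromosomes (18.2 to 21.1%). The other chromosomes were not cut beside the centromere. Of the 50 peaks from 56 to 58 Mb, left out here, 16 were wider than the widest member. Width followed the score. Between scores of 50 and 60, the median was 633 bp on 7p (625 to 641) and 622 bp on the other chromosomes (616 to 626). Between 60 and 100 the medians were 769 bp (743 to 803) and 795 bp (776 to 814), with overlapping intervals. Between 100 and 1000, the 16 members were narrower, with a median of 1123 bp (951 to 1248) against 1601 bp (1541 to 1665), and their scores within that band were not matched to those of the other peaks. The long arm's median in that band was 1098 bp (1051 to 1320), an interval that overlaps that of 7p. Among members, the Spearman correlation of width with score was 0.62 over 373 peaks. It is given as a description, since width itself enters the score together with n, and all peaks share 1 library.

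The highest scores stood apart from the rest of the arm. The highest, 772.89, belonged to the peak from 49573866 to 49575391, which at 1526 bp was also the widest and had an implied n of 108 (exact Poisson interval 88.6 to 130.4). The peak from 19913 to 20863, the first of the chromosome, scored 542.41 with n = 72 (56.3 to 90.7) in 951 bp. The peak from 944998 to 946169 scored 361.28 with n = 60 (45.8 to 77.2) in 1172 bp. These 3 ranked 288, 392 and 566 in the whole list, so the highest scores of the list lay elsewhere. Among peaks within 20% of their own width, however, they ranked 10 of 496, 5 of 1009 and 14 of 729, as high scores for their width. Being picked by score, they would rank high in part for that reason.

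The next 7 in score fell quickly toward the bulk. The peak from 29767193 to 29768440 scored 198.68 (n = 43). The other 6, from 130.99 to 115.42 with n from 37 to 30, began at 47050782, 442384, 9583600, 23861050, 24712197 and 49804018. The peak at 29767193 ranked 74 among 662 of like width. The 6 others ranked between 231 and 387 in width classes of 523 to 772 peaks, well inside their class. Besides the peak at 49573866, the widest were those from 47050782 (1471 bp), 28375996 (1410 bp, score 97.76), 24712197 (1333 bp) and 10960425 (1273 bp, score 95.9). The 16 members of 100 or more lay in 11 of the 56 bins of 1 Mb. The bin from 0 to 1 Mb held 4 of them and that from 49 to 50 Mb held 3.

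**Figure D3:**
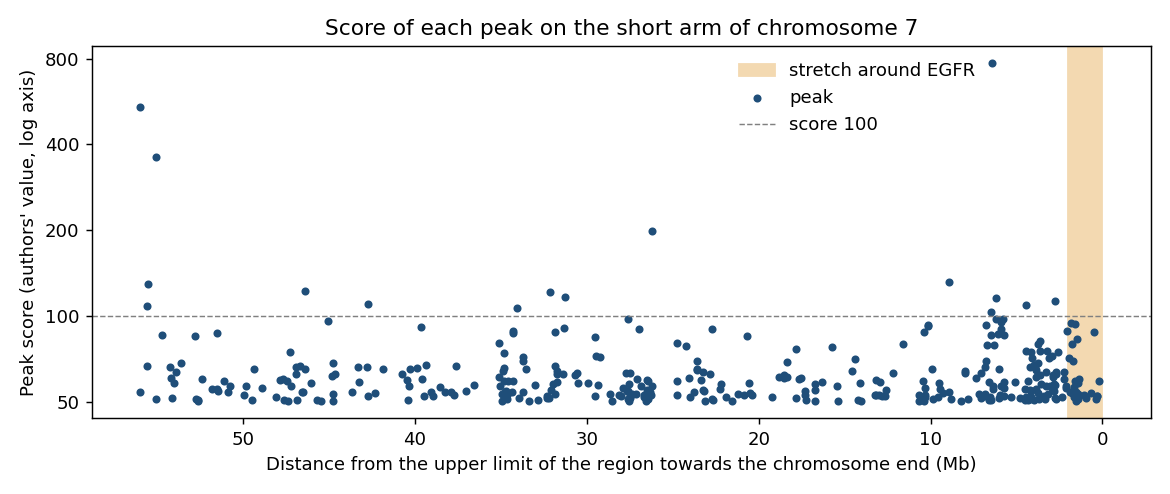
Score of each of the 373 peaks (log axis) against its distance in Mb from the upper limit of the region, with the chromosome end at the left. The dashed line marks a score of 100, which 16 peaks reach, and the shaded band is the 2 Mb stretch around EGFR, where none does.

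Peaks were found almost everywhere on the arm. Of its 56 bins of 1 Mb, 55 held at least 1 peak (98.2%). The same share was 73.96% on the long arm and 82.5% on chromosome 20. Over the 21 chromosomes other than 7, 20 and Y it had a median of 20.9% and a highest value of 40.4%. The bin from 30 to 31 Mb was the only empty one, and the bins starting at 14, 19, 36 and 44 Mb held 1 peak each. The median bin held 5 peaks.

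Spread over nearly all bins, the peaks were still uneven in number. The variance over bins was 26.7 against a mean of 6.66, where independent scatter would give equal values. The fullest bins were 52 to 53 Mb with 22 peaks, 49 to 50 and 53 to 54 Mb with 19 each, 54 to 55 Mb with 18 and 51 to 52 Mb with 17. These 5 adjoin or nearly adjoin each other near the centromere side of the arm. In all, 12 bins held 10 or more peaks and together had 183 of the 373 (49.1%). The 6 such bins below 49 Mb lay at 21, 24, 28, 29, 32 and 45 Mb, with at most 16 peaks.

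From 49 to 55 Mb the arm carried a plateau of peaks. Each of its 6 bins held between 13 and 22, with a median of 18.5, against a median of 5 per bin below 49 Mb. The 108 peaks of the plateau gave 18 per Mb (14.8 to 21.7), and the 258 below it gave 5.27 per Mb (4.64 to 5.95), a 3.42-fold difference (2.71 to 4.296). These borders were chosen after the map was seen, so the interval describes the contrast and does not test it. The fold was 2.84 (2.06 to 3.86) for scores under 60 and 5.27 (2.85 to 9.54) for scores at or above the list median of 79.1, which 20 and 31 peaks reached. With chains counted once it was 0.772 (0.388 to 1.396), because the plateau merges into 12 chains. At this density, joining over 100 kb merges most peaks whatever their arrangement, so the chain count does not show how they were arranged.

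Neither the median score nor the share at 100 or more differed beyond counting error between the plateau and the arm below it. The median was 58.6 on the plateau (56.5 to 63.2) and 56.9 below it (55.09 to 58.6), with overlapping intervals, and 4.63% (1.52 to 10.5%) and 4.26% (2.15 to 7.501%) scored 100 or more. The median implied n was 16 and 15. Other measures were higher on the plateau, with an upper quartile of 72.7 against 64.04. Scores under 60 made up 52.8% (42.9 to 62.5%) against 63.6% (57.4 to 69.4%), with overlapping intervals. The list median was reached by 20 of 108 peaks and 31 of 258. Across the 373 peaks, score and the number of other members within 500 kb had a Spearman correlation of 0.098, and the scores of consecutive peaks one of 0.044. Both are weak and are no finding in counts this small.

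The rest of the arm below 49 Mb was sparser than the plateau. Density was 4.8 per Mb from 0 to 10 Mb (3.54 to 6.36), 3.5 from 10 to 20 Mb (2.44 to 4.87), 8.3 from 20 to 30 Mb (6.61 to 10.3), 4.6 from 30 to 40 Mb (3.37 to 6.14) and 5.11 from 40 to 49 Mb (3.74 to 6.82). The interval of the block from 20 to 30 Mb did not overlap those of the blocks on either side. These intervals treat peaks as independent, while counts per bin varied more than independent scatter would give. They are therefore too narrow to show a difference between blocks. Counted as chains, the 5 blocks lay between 2.2 and 3 per Mb, with overlapping intervals. Of the 48 members in the first 10 Mb, 5 scored 100 or more (10.4%, 3.47 to 22.7%). Between 30 and 40 Mb none of 46 did (0 to 7.71%). Both intervals include the 4.29% of the whole arm.

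**Figure D4:**
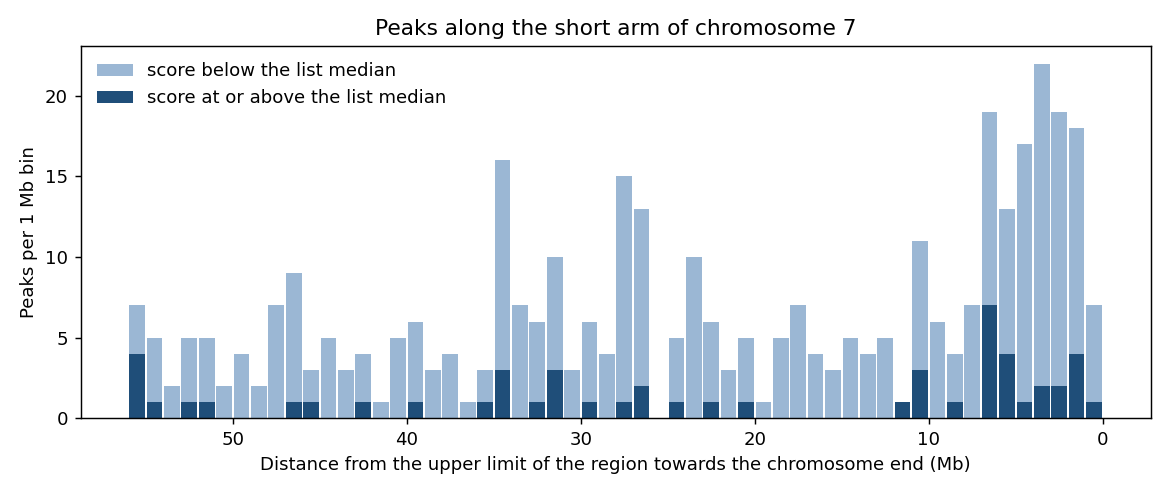
Number of peaks in each 1 Mb bin of 7p against distance in Mb from the upper limit of the region, with the chromosome end at the left. Dark bars count peaks at or above the list median score and light bars the others; the 6 bins of the plateau hold 13 to 22 peaks each, and 1 bin is empty.

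Spacing on 7p was intermediate, with few tight groups and few long gaps. The median distance from the end of a peak to the start of the next was 68.6 kb (60.3 to 80.9), with quartiles of 22.8 and 192.1 kb. On the long arm it was 185.1 kb (140.4 to 266.1), on chromosome 20 it was 50.1 kb (37.6 to 69.99), and on the other chromosomes it was 2.58 kb (2.34 to 3.03). Only 5.36% of the members had another peak within 1 kb (3.31 to 8.16%), against 49.5% on the other chromosomes (47.6 to 51.3%). Within 50 kb the shares were 60.6% (55.4 to 65.6%) and 78.4% (76.8 to 79.8%), and within 100 kb 80.4% (76.03 to 84.3%) and 80.3% (78.8 to 81.7%). Within 250 kb the order turned, with 93.6% (90.6 to 95.8%) on 7p and 83.7% (82.3 to 85.001%) on the other chromosomes. Compared with the other chromosomes, members thus had fewer close neighbours and were less often far from any. On the long arm 7.22% had a neighbour within 1 kb (4.001 to 11.8%), an interval that overlaps that of 7p. The share on chromosome 20 was 18.5% (14.1 to 23.6%). Few close neighbours were therefore shared by both arms. The closest pair, ending at 39282350 and starting at 39282376, was 25 bp apart.

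Long gaps were rare. Of 372 gaps, 24 exceeded 500 kb and 4 exceeded 1000 kb. The longest was 1441.3 kb from 29814057 to 31255356, followed by 1422.8 kb from 19463590 to 20886422, 1161.6 kb from 35605830 to 36767408, 1142.05 kb from 14129109 to 15271158 and 976.5 kb from 11340145 to 12316598. On the other chromosomes, 10% of the gaps exceeded 2199.7 kb, longer than any on 7p. Unsequenced stretches were not located, and a gap may hold one.

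The chains ran from single peaks to 1 of 30. Single peaks numbered 73 (19.6%, 15.7 to 23.97%), 62 chains of 2 to 9 held 190 peaks, and 7 chains of 10 or more held 110 (29.5%, 24.9 to 34.4%). Median scores were 57.1 (54.1 to 59.4), 56.8 (55.09 to 58.96) and 58.2 (55.6 to 61.9) in these classes, with overlapping intervals. Scores under 60 made up 65.8% (53.7 to 76.5%), 62.1% (54.8 to 69.03%) and 55.5% (45.7 to 64.9%). None of the 73 single peaks scored 100 or more, which by the limit of 3 counts allows a share of up to 4.11%, while 11 of 190 (5.79%, 2.93 to 10.1%) and 5 of 110 (4.55%, 1.49 to 10.3%) in the chains did.

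Of the 7 long chains, 5 lay above 49 Mb and held 84 peaks. The largest, from 51482984 to 52447539, had 30 peaks with scores from 50.43 to 108.93 and a median of 60.06. The chain from 54049347 to 54658043 had 17 (median 58.01, highest 93.99), that from 53055240 to 53405880 had 13 (60.79, 112.49), and that from 49939549 to 50299668 had 12 (61.8, 97.23). The chain from 49406528 to 49805141, also of 12, had the highest median, 68.7, and held the top peak of the arm and 2 others of 100 or more. Below 49 Mb, 14 peaks lay from 20886422 to 21397046 (57.93, 79.99) and 12 from 28289930 to 28655562 (53.74, 97.76). Between 1.81 and 2.65% of the bases of these 7 chains were inside a peak, so each was a row of separate narrow peaks and not 1 wide domain.

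The stretch from 54 to 56 Mb, around EGFR, held 25 members (6.702%, 4.38 to 9.74%). Its 12.5 peaks per Mb (8.09 to 18.5) were 1.94-fold the density of the rest of the arm (1.24 to 2.91), or 0.985-fold (0.315 to 2.36) with chains counted once. They were 0.694-fold that of the plateau just below it from 49 to 54 Mb (0.427 to 1.09), an interval that includes 1. Among the 28 windows of 2 Mb on the arm it ranked 5, behind 52 to 54 Mb with 41 peaks, 50 to 52 Mb with 30, 28 to 30 Mb with 28 and 48 to 50 Mb with 26. The stretch was thus among the fuller ones, but the fullest part of the arm lay farther from EGFR toward the chromosome end.

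Within the stretch the peaks were lopsided. The first Mb, from 54 to 55, held 18 and belonged to the plateau, and the second held 7. The 7 gave 7 per Mb (2.81 to 14.4), a density that did not differ beyond counting error from the 5.27 per Mb below 49 Mb (fold 1.33, 0.529 to 2.78). It was 0.389-fold that of the plateau (0.153 to 0.829). Of the 18, 17 formed the single chain from 54049347 to 54658043.

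No peak of the stretch scored 100 or more. The exact interval for 0 of 25 is 0 to 13.7%, which includes the 4.29% of the whole arm. The list median was reached by 5 of the 25, against 47 of 348 on the rest of the arm. The stretch was thus not shown to be weaker than the rest of the arm. Within the stretch, scores ran from 50.34 to 93.99 with a median of 54.1 (52.6 to 60.2), 17 of 25 scored under 60 and 13 scored under 55. The 2 highest were the peak from 54184698 to 54185684 (987 bp, score 93.99, n = 25) and that from 54380749 to 54381663 (915 bp, 93.84, n = 24). They were followed by those from 55529165 to 55529997 (87.8, n = 22), from 54535454 to 54536341 (82.71, n = 22) and from 54236510 to 54237279 (79.93, n = 20). Peaks starting at 54049347, 54303651 and 54657275 scored 70.9, 69.24 and 60.16. The 17 others scored from 50.34 to 59.12 with n from 13 to 17. In the first Mb they began at 54117408, 54226697, 54327124, 54355317, 54431182, 54438285, 54482414, 54578078, 54586705, 54600044 and 54929659. In the second they began at 55025106, 55336725, 55626071, 55674457, 55677395 and 55788685. All 25 matched the Poisson rate fitted outside chromosome 7, and 13 of them would score under 50 with 1 read fewer (52%, 31.3 to 72.2%).

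The longest gap of the stretch ran for 310.9 kb, from the peak ending at 55025828 to the one starting at 55336725. By general knowledge of hg19, and without an annotation of that build, the EGFR gene lies in this gap, so the list held no peak in the gene body. The 2 flanking peaks scored 51.26 and 53.74, each with n = 15, both near the bottom of the list. In the gene order of the GRCh38 RefSeq table, SEC61G and VSTM2A precede EGFR, and LANCL2 and VOPP1 follow it, but no peak was assigned to any of them. The gap was longer than the upper quartile of the arm, 192.1 kb, and ranked 56 of 372. It was the second longest of the 114 gaps above 49 Mb, after 403.2 kb from 50299668 to 50702867. Depth limits what can be said of the gene: a region with fewer reads than the threshold needs would leave no peak, so binding in EGFR was not detected and is not shown to be absent.

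**Figure D5:**
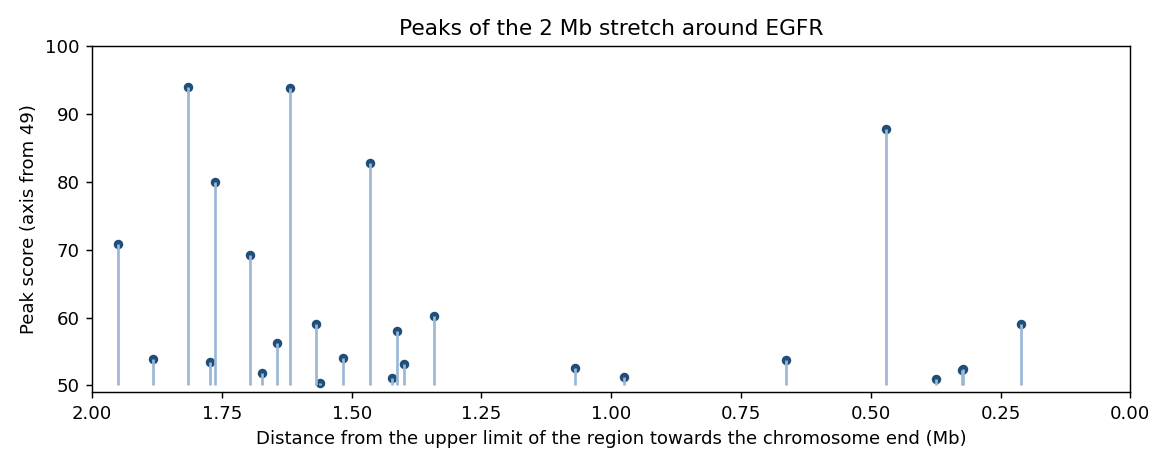
Score (axis from 49) of each of the 25 peaks of the 2 Mb stretch around EGFR against distance in Mb from the upper limit of the region. The points crowd on the left, where 18 peaks lie in the first Mb, and the longest space between points, 310.9 kb, is the one that holds EGFR by general knowledge of hg19.

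The limit at 56 Mb cut through a change in the peaks. The last members inside it, starting at 55674457, 55677395 and 55788685, scored 52.22, 52.4 and 59.03. The first peaks outside it started at 56046357, 56437802 and 56481986, with scores of 52.05, 804.22 and 53.43 and widths of 553, 4509 and 694 bp. Between 56 and 58 Mb, nearer the centromere, lay 50 peaks with a median score of 84.8, of which 44 lay above 57 Mb. Of the 50, 22 scored 100 or more, more than on the whole arm below the limit, and 16 were wider than the widest member. The highest there scored 3100.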

How the data were processed

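The authors' deposited file is a list of SOX4 peaks in hg19 with a position, a name and a score, which has no header and no stated scale. Per the submitters' processing notes, Bowtie 0.12.7 and MACS were run with build hg19. The sources used here give neither its settings nor whether it used the GFP library. Positions are counted from 1. Distances run from edge to edge.

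Members and measures were chosen with earlier results of these data known, and the Poisson reading of the score, the borders at 49, 55 and 63 Mb and the limit at 58 Mb after the data were seen. Named are the 10 highest and 5 widest peaks, all of 54 to 56 Mb, the 5 fullest and all empty bins, the 5 longest gaps, the first and last peak and chains of 10 or more. Shares have exact Clopper-Pearson intervals, and at 0 either that interval or the limit of 3 counts. Densities have exact Poisson, ratios conditional exact and medians order-statistic intervals. The rate was fitted on peaks outside chromosome 7 with a score under 58 and a width under 760 bp, and the match was computed for scores below 3000. The code was tested on simulated data. Alternatives were score minimums, other limits of the arm, neighbour distances, joining and bin sizes. The tools were SciPy 1.17.1, NumPy 2.4.6, pandas 2.3.3 and matplotlib 3.10.9 under Python 3.11.15.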

Additional observations from a re-analysis of the deposited data

How the results depend on the processing

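No paired analysis was possible because neither condition was replicated. At or above the list median score, and at 100 or more, 7p kept 52 and 16 peaks, 2.47% and 0.959% of all peaks past the same minimum, or 0.929 and 0.286 per Mb. Their median score was 91.7 and 118.9, width 992.5 and 1123 bp and spacing 523.8 and 1774 kb, with 34.6% and 25% within 100 kb of a neighbour. The stretch from 54 to 56 Mb held 0% of the 16, and its middle 1 Mb held 2.14% of all members. A neighbour within 50 or 250 kb was found for 60.6% and 93.6%. A limit at 58 Mb raised the 7p count to 423 and its share to 10.07%. Counting chains once gave 2.54 per Mb, and turned the folds of 49 to 55 over 0 to 49 Mb and of 54 to 56 over 49 to 54 Mb to 0.772 and 1.25, since joining merges dense stretches. At or above the median score the first of these folds was 5.27. The fullest bin held 41 peaks with 2 Mb bins, 14 with 0.5 Mb bins and 28 with bins shifted by 0.5 Mb. A tolerance of 0.05 matched 100% of the scores. A limit at 54 Mb gave 348 peaks. The other alternatives left each share, density, median or fold inside its interval. The total depth is unknown, and stretches with no peak have no read number here.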
